A study of Mus musculus with 4 samples.

Results

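A set of 10 genes of the NRF2 programme was examined for binding of overexpressed MafG in mouse liver: the thioredoxin and peroxiredoxin genes Txn1, Txnrd1, Srxn1, Prdx1 and Prdx6, the detoxification genes Nqo1, Ephx1 and Cbr3, and the genes Sqstm1 and Osgin1. They are a list of 10 named genes out of 21887 protein-coding genes of the RefSeq table for mm10. All peaks of the deposited list whose midpoint lay inside one of them or within 50 kb of either end were taken, which gave 64 of 68763 peaks. The study carried out chromatin immunoprecipitation with sequencing (ChIP-seq) on livers of C57BL6/J mice. In 2 libraries the treatment was labelled Ad BLRP MAFG, which gave MafG carrying the BLRP peptide tag, and in 2 control libraries it was labelled Ad BLRP Control. The same Avi-tag antibody was used for precipitation in both groups. No age of the mice is used here. The precipitated protein was tagged and overexpressed, so the peaks describe that protein and not native MafG at its own level. The deposited result is 1 peak list called on 1 BLRP-MafG tag collection over 1 control collection, and whether each collection joined both libraries is not given in the sources used here. There is thus no value per library, no standard deviation between animals and no test between groups, and the tissue label cannot be checked against marker genes with peaks alone.

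NRF2 is a transcription factor that the adaptor KEAP1 holds at low levels and that accumulates under oxidative or electrophilic stress. It binds DNA only as a pair with a small MAF protein such as MafG, at a sequence called the antioxidant response element. Small MAF proteins have no activation domain of their own, and as pairs with each other or with BACH1 they can sit on the same elements without activating the gene. The liver is a main site of this programme, which renews thioredoxin and glutathione and conjugates or reduces reactive compounds.

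The height of a peak is given as the normalized tag count, the number of BLRP-MafG tags in the 200 bp peak scaled to 10000000 tags. The BLRP-MafG collection held 20406492 tags and the control an implied 1.72e+07. Values in brackets after a height or ratio are exact 95% intervals, which cover the counting of tags only. A ratio to control is given per total tag. Where the control held 0 tags, the ratio was set against a floor of 3 control tags and is given with its exact lower limit.

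Promoter sequence could be set beside a listed peak for 3 of the 10 genes. The RefSeq promoter table, on the same assembly, holds 11 windows for 9 of the genes, each from 250 bases before to 50 after a start site, and none for Prdx6. Of all 32817 windows in it, 6.99% held the midpoint of a listed peak, a share of windows and not of genes. Shown here are the bases of the peak that lie before the start site, in the direction of the gene, for Prdx1 (chr4:116685377-116685577, plus strand), for an internal start site of Txnrd1 (chr10:82859013-82859205, plus strand) and for Ephx1 (chr1:181017570-181017701, minus strand). Capitals mark matches, on either strand, to the motifs searched. These are TGACNNNGC, the core of the antioxidant response element, TGCTGA, part of the MAF recognition element, and TGACTCA, the AP-1 core. A TGACTCA followed by GC is also a TGACNNNGC.
Prdx1: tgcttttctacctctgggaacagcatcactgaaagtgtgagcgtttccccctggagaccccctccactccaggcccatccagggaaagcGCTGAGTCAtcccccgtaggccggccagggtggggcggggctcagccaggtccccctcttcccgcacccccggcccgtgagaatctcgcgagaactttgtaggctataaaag
Txnrd1: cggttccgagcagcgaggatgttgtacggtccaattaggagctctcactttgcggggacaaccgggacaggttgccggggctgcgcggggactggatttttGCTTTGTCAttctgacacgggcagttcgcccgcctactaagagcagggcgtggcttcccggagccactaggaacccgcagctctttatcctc
Ephx1: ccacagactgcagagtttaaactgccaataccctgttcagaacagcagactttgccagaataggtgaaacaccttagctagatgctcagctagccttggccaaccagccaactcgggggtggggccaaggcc

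In Prdx1 the match GCTGAGTCA, read on the other strand, is both a TGACNNNGC and a TGACTCA. It lay 133 to 125 bp before the start site, with its centre 7 bp from the midpoint of the peak. In Txnrd1 the match GCTTTGTCA is a TGACNNNGC on the other strand, 92 to 84 bp before the internal start site and 5 bp from the midpoint. The stretch of Ephx1 holds none of the 3 motifs. Over all 32817 promoter windows, 12.4% hold TGACNNNGC, 19.5% hold TGCTGA and 5.2% hold TGACTCA. A match is a description of the letters and does not show that MafG bound them.

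A further pair of stretches belongs to genes whose promoter window held no peak midpoint. The first, of Nqo1 (chr8:107403206-107403455, minus strand), lies between 2 peaks. The second, of Srxn1 (chr2:152105274-152105523, plus strand), was chosen after its letters were seen, because it holds motifs without a listed peak.
Nqo1: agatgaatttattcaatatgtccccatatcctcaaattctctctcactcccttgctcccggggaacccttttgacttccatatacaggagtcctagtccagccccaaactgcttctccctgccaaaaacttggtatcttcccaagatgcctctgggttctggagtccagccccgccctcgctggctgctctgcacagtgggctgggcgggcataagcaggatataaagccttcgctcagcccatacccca
Srxn1: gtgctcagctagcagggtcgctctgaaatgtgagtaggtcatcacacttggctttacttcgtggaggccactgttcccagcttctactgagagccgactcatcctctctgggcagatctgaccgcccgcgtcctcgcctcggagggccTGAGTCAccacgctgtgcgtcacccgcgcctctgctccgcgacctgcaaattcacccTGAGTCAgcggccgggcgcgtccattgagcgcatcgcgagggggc

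Nqo1 held none of the 3 motifs in this window. Its nearer peak starts beyond the window, so the bases under that peak are not shown. Srxn1 held TGAGTCA, the AP-1 core on the other strand, at 102 to 96 bp and again at 45 to 39 bp before the start site. Its window also held 1 TGACNNNGC match past the start site. The peak nearest to these matches had its midpoint 1044 bp beyond the window, inside the gene. The window of Osgin1 likewise held an overlapping TGCTGA (100 to 95 bp before the start site) and TGACTCA (97 to 91 bp before it), and its nearest listed peak lay 3588 bp from the window. In all, TGACNNNGC was found in 3 of the 11 windows, TGCTGA in 2 and TGACTCA in 3.

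All 10 genes had a listed peak within 50 kb, but so did 93.5% of all protein-coding genes. Within 10 kb the count was 9 of 10, against 74.5%, and Cbr3 was the exception. A peak inside the gene was listed for the same 9 genes, against 50.5% of all protein-coding genes and 54.5% of the 12350 genes of 5.85 to 63.8 kb, the length range of the 10. A peak within 1 kb of either end was listed for 4 genes, Ephx1, Nqo1, Prdx1 and Prdx6, against 24.5%. A peak of 50 or more within 50 kb was listed for 3 genes, Srxn1, Prdx1 and Sqstm1, against 35.4%. These counts are descriptions of a list chosen with earlier results of these data known, and were not tested.

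By their median, the highest peaks of these genes were of ordinary height. The median of their highest peaks was 28.4, against 33.8 over all protein-coding genes (quartiles 16.7 and 69.6), with genes that had no listed peak counted as 0. Within 10 kb, counted in the same way, it was 21.8 against 13.7. Over only the genes with a peak within 10 kb, it was 23 for 9 genes against 21.6 for 16303, so most of that gap lay in how many genes had a peak. The number of peaks per gene ran from 2 at Txn1 to 11 at Prdx1, with a median of 6 against 5. Per Mb of the gene with its 50 kb flanks, the median was 54.4 peaks, against 35.3 over all protein-coding genes. Over the genes in the length range of the 10 it was 38.2, and the difference was not tested. By height, Srxn1 came first at 303 (279 to 328), above Prdx1 at 90.2 (77.6 to 104) and Sqstm1 at 85.3 (73.1 to 98.9), whose intervals overlap each other. Ephx1 at 37.7 (29.8 to 47.2) lay below Sqstm1 with no overlap. From Ephx1 downward, through Prdx6, Txnrd1, Nqo1, Osgin1 and Cbr3 to Txn1 at 10.3 (6.37 to 15.7), each interval overlapped that of its neighbour in the order.

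**Figure D1:**
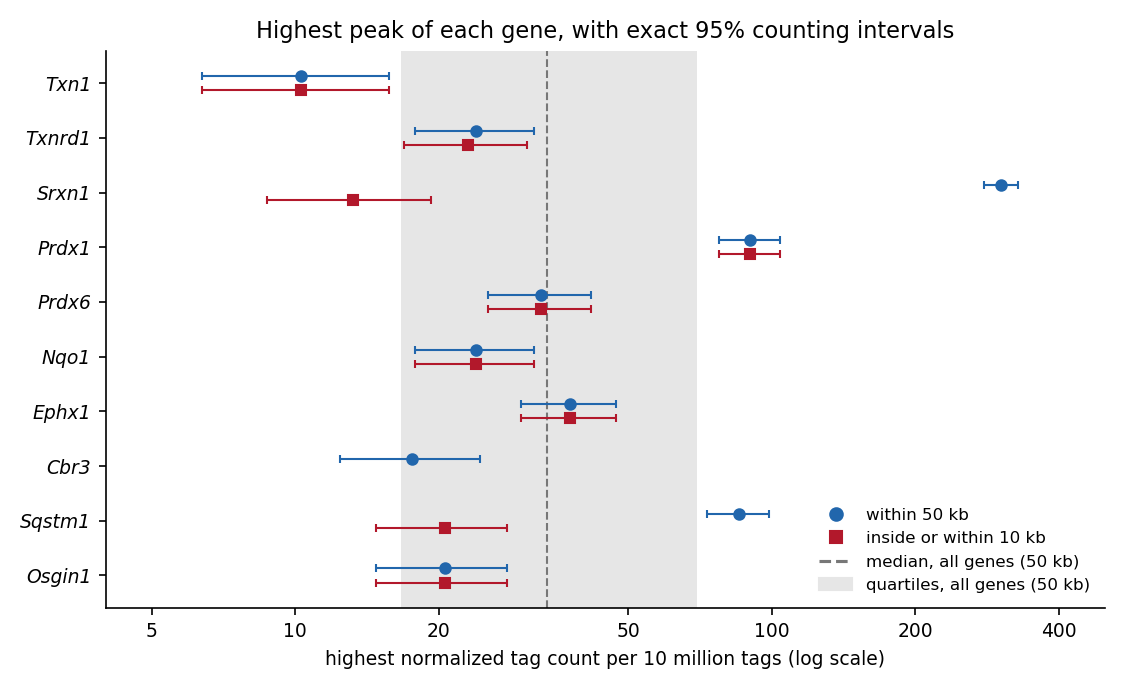
Highest normalized tag count (log scale) of each of the 10 genes within 50 kb (circles) and inside or within 10 kb (squares), with exact 95% counting intervals; the dashed line and grey band are the median and quartiles of all protein-coding genes within 50 kb. Srxn1 and Sqstm1 drop from 303 to 13.2 and from 85.3 to 20.6 in the smaller window, Prdx1 stays at 90.2, and Cbr3 has no square.

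The 64 peaks rested on few tags. The median peak held 29 BLRP-MafG tags, against 25 in the whole list, and the lowest 13. Their median height was 14.4 (quartiles 10.1 and 20.7), against 12.3 (quartiles 7.84 and 23.5) in the whole list. Of them 25% were below 10, against 40.2% in the whole list, and 6.25% were at 50 or more, against 9.88%. The control held 0 tags in 21 of them (32.8%, against 44.4% in the whole list) and never more than 4. Only peaks at least 10-fold over control were kept in the list, so low control counts are partly set by that cutoff. The excess over the surrounding 10 kb, as given in the authors' deposited table, had a median of 8.21 for these peaks and of 16.2 for all peaks. The lower limit of the ratio to control was above 10 in 6 of the 64 (9.38%, against 15.2%).

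**Figure D2:**
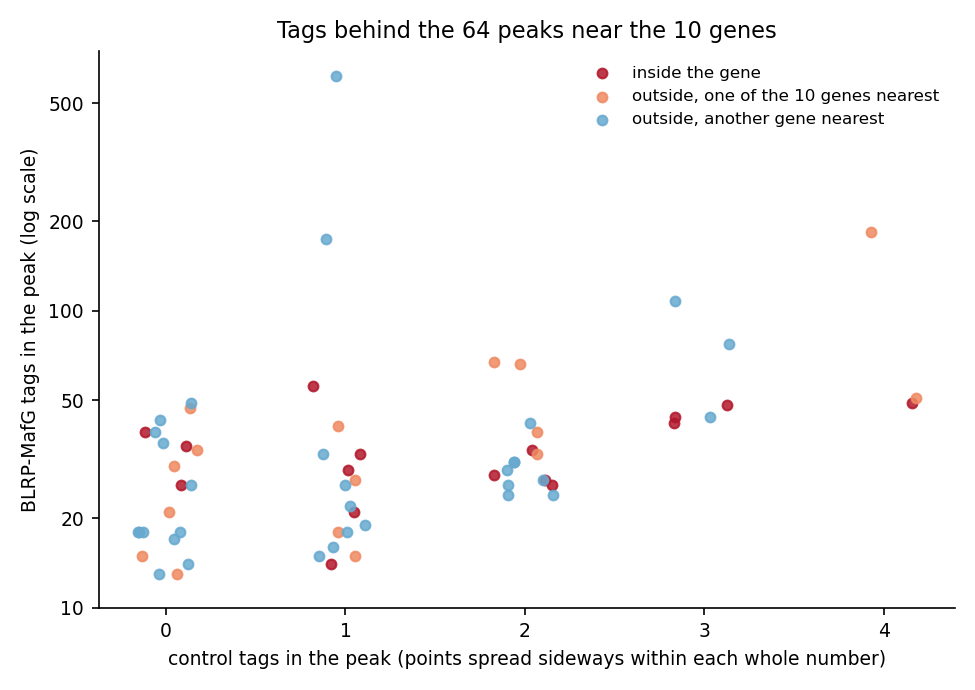
BLRP-MafG tags (log scale) against control tags for the 64 peaks near the 10 genes, coloured by place; each point is 1 peak. The control never exceeds 4 tags, which is partly set by the 10-fold cutoff over control that made the list. The 4 peaks with the most BLRP-MafG tags (108 to 618) lie outside the genes.

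Of the 64 peaks, 16 lay inside one of the genes, 16 outside with one of the 10 as the nearest protein-coding gene, and 32 (50%) nearer to, or inside, another gene. No peak was near more than 1 of the 10. The peaks inside the genes had a median height of 16.4 and reached 27.4. Those outside with one of the 10 nearest had the same median, 16.4, and reached 90.2. Those nearer another gene had a median of 12.7 and included 3 of the 4 peaks of 50 or more.

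**Figure D3:**
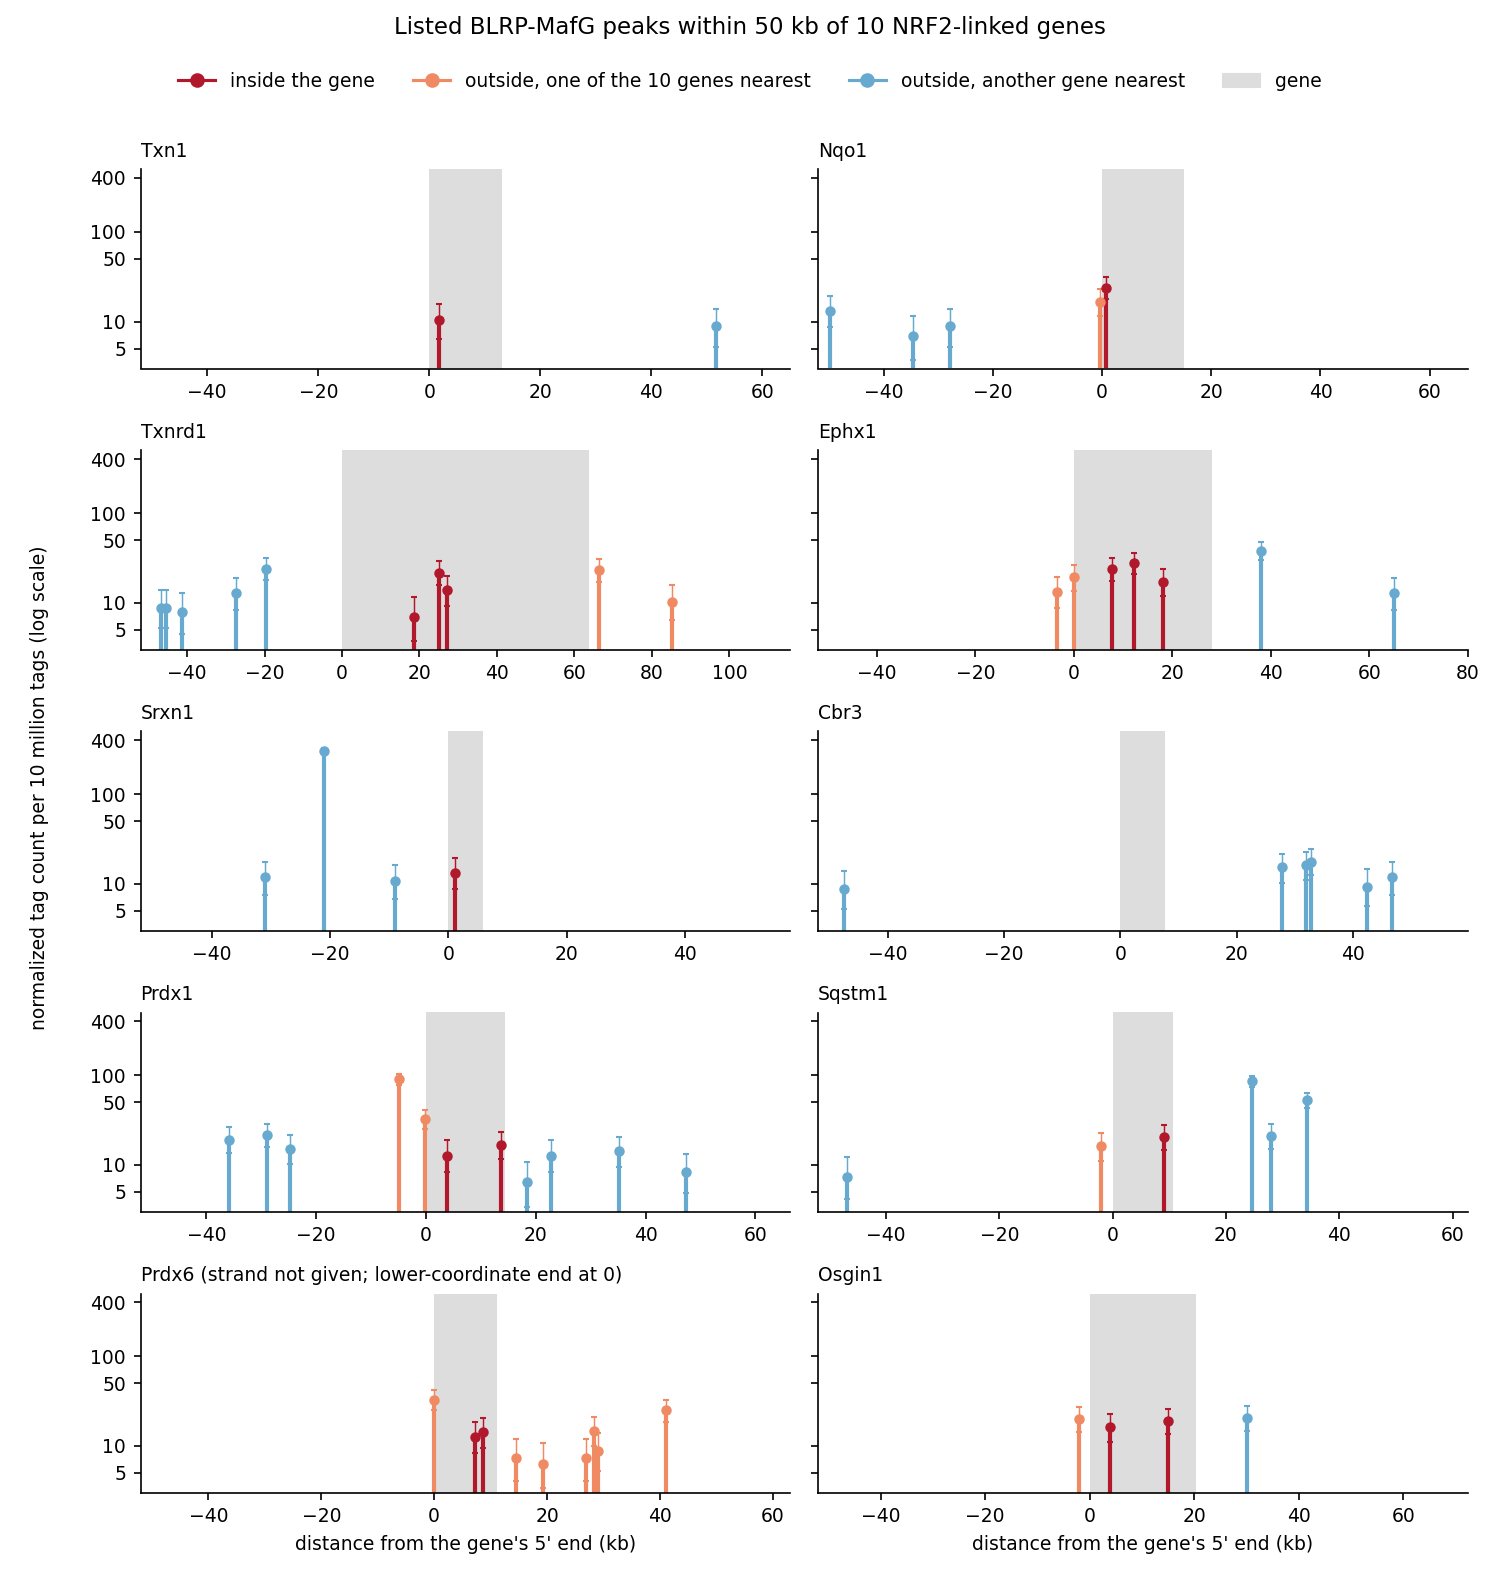
Listed peaks within 50 kb of each gene, as normalized tag count (log scale) against distance in kb from the 5′ end of the gene, or from the lower-coordinate end for Prdx6; bars are exact 95% counting intervals and grey marks the gene. Tall peaks stand upstream of Srxn1 (303) and Prdx1 (90.2) and downstream of Sqstm1 (85.3), whereas peaks inside the 10 genes reach no more than 27.4.

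Txn1 encodes cytosolic thioredoxin, the small protein that reduces disulfides in other proteins, and had the fewest peaks of the 10 and the lowest highest peak. The gene lies at chr4:57943373-57956411 on the minus strand. A peak of 10.3 (6.37 to 15.7), from 21 tags over 1 control tag, lay inside it, 1748 bp after the start site at chr4:57954563-57954763. The other, of 8.82 (5.23 to 13.9) over 0 control tags, lay 38610 bp downstream at chr4:57904663-57904863 and closer to D630039A03Rik. Of all protein-coding genes, 14% had a lower highest peak than Txn1.

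Txnrd1 encodes the cytosolic selenoenzyme that reduces thioredoxin with NADPH, and its 10 peaks were many but low, between 6.86 and 24. It is the longest of the genes (chr10:82833951-82897724, plus strand) and has 3 start sites in the table. Of all protein-coding genes, 89.1% had fewer peaks within 50 kb, whereas 36.3% had a lower highest peak. Of the 10 peaks, 5 had Txnrd1 as the nearest protein-coding gene, and the others lay nearer to, or inside, Hcfc2. The first start site had no listed peak within 10 kb of it. At the second, the peak shown above (chr10:82859013-82859213) had its midpoint 93 bp before the start, a height of 21.6 (15.7 to 28.9) and a ratio to control of 12.4 (3.97 to 62.3), from 44 tags over 3. The whole of this peak also lies in the promoter window of Gm38560, on the minus strand. A peak of 13.7 (9.12 to 19.8) lay 701 bp after the third start site at chr10:82860942-82861142. A lower one of 6.86 also lay inside the gene, at chr10:82852446-82852646. Outside it, a peak of 23 (16.9 to 30.6) over 0 control tags lay 2694 bp downstream at chr10:82900318-82900518, with a ratio of 13.2 against the floor (lower limit 10.3). The highest, of 24 (17.8 to 31.7), stood 19667 bp upstream at chr10:82814184-82814384, nearer to Hcfc2. These 3 peaks of 21.6 to 24 overlap in their intervals, so none of them stands out as the highest.

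Srxn1 encodes sulfiredoxin, which repairs peroxiredoxins whose active site has been overoxidised, and it was the gene with the tallest peak and with the widest gap between that peak and the rest. The peak of 303 (279 to 328), 618 tags over 1 control tag, lay 21036 bp upstream at chr2:152084388-152084588. Its ratio to control was 521 (93.2 to 20624), or 174 against the floor, and it ranked 282 in the list of 68763. It lies inside Scrt2, a zinc finger transcription factor gene, so it is assigned to Srxn1 by distance alone. The other 3 peaks were low, at 13.2 (8.72 to 19.3) inside Srxn1, 1093 bp after its start at chr2:152106517-152106717, 10.8 (6.76 to 16.3) at 8949 bp upstream and 11.8 (7.54 to 17.5) at 30920 bp upstream. Within 10 kb the highest peak of Srxn1 was thus 13.2, against a median of 21.6 over all genes with a peak in that window.

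Prdx1 encodes a peroxiredoxin of the cytosol, an abundant enzyme that removes hydrogen peroxide with electrons from thioredoxin, and it had both the most peaks and the tallest one close to its own gene. The gene lies at chr4:116685599-116700000 on the plus strand. The tallest, of 90.2 (77.6 to 104), lay 4898 bp upstream at chr4:116680601-116680801, with no other protein-coding gene nearer. It held 184 tags over 4 control tags, a ratio of 38.8 (14.9 to 144). The second, shown above, had its midpoint 122 bp before the start site at chr4:116685377-116685577 and stood at 32.3 (25 to 41.1), with a ratio of 27.8 (7.41 to 235) from 66 tags over 2. The intervals of these 2 heights do not overlap, whereas those of their ratios do. Inside the gene lay peaks of 12.7 (8.32 to 18.7) and 16.7 (11.5 to 23.3), the second 750 bp before the end of the gene. The other 7 peaks, between 6.37 and 21.6, lay nearer to Akr1a1, an aldehyde reductase gene, to Mmachc, a cobalamin metabolism gene, to Ccdc163 or to Tesk2. Of all protein-coding genes, 92.2% had fewer peaks and 91.4% had a lower highest peak within 10 kb.

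Prdx6 encodes a peroxiredoxin that draws on glutathione in place of thioredoxin and also acts on phospholipids. Its 9 peaks all had Prdx6 as the nearest protein-coding gene, since no other lies within 50 kb. The highest, of 32.8 (25.4 to 41.7), sat 23 bp outside the lower-coordinate end of the gene at chr1:161239989-161240189, with 67 tags over 2 control tags and a ratio of 28.3 (7.52 to 238). The gene spans chr1:161240112-161251210, and the tables used here give no strand for it, so this end cannot be named as its start or its finish. Peaks of 12.7 (8.32 to 18.7) and 14.2 (9.52 to 20.4) lay inside it. The other 6 lay beyond the higher-coordinate end, from 3383 to 30051 bp away, and only the farthest of them, at 25 (18.6 to 32.9), exceeded 14.7. That one had 4 control tags and a ratio of 10.8 (3.95 to 41).

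Nqo1 encodes the quinone reductase widely used as a readout of NRF2 activity, and 2 of its 5 peaks flanked its start site. The gene lies at chr8:107388225-107403205 on the minus strand. One peak, of 16.7 (11.5 to 23.3), lay 408 bp upstream of the start at chr8:107403513-107403713, from 34 tags over none in the control, which set against the floor is a ratio of 9.56 (lower limit 7.36). The other, of 24 (17.8 to 31.7), lay 681 bp downstream of the start, inside the gene, at chr8:107402424-107402624. It held 49 tags over 4 control tags, the most in any of the 64 peaks and shared with the tall peak of Prdx1 and the far peak of Prdx6, and its ratio was 10.3 (3.79 to 39.4). The heights of the 2 peaks overlap in their intervals. The remaining 3, of 6.86 to 13.2, lay 27795 to 49785 bp upstream and nearer to Wwp2, a ubiquitin ligase gene. Of all protein-coding genes, 36.3% had a lower highest peak within 50 kb and 65.8% within 10 kb.

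Ephx1 encodes microsomal epoxide hydrolase, which opens epoxides formed from drugs and pollutants, and had peaks at its start site and along its length. The gene lies at chr1:180989556-181017569 on the minus strand. Of its 7 peaks, one of 19.1 (13.6 to 26.1), shown above, had its midpoint 32 bp before the start site at chr1:181017501-181017701, with a ratio of 16.4 (4.26 to 141). Inside the gene lay 23.5 (17.3 to 31.2) at 7683 bp, 27.4 (20.7 to 35.6) at 12106 bp and 17.2 (11.9 to 23.9) at 18092 bp after the start. The intervals of these 4 overlap. One of 13.2 (8.72 to 19.3) lay 3385 bp upstream. The highest, of 37.7 (29.8 to 47.2) with 77 tags over 3 control tags, lay 9917 bp downstream at chr1:180979539-180979739. It lies nearer to Tmem63a, as does one of 12.7 (8.32 to 18.7).

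Cbr3, a carbonyl reductase gene at chr16:93683219-93690991 on the plus strand, was the only one of the 10 with no listed peak inside it or within 10 kb. Its 6 peaks, of 8.82 to 17.6, lay between 20030 and 47459 bp away, and all of them were nearer to another gene. The 5 downstream, among them the highest at 17.6 (12.4 to 24.4) over 0 control tags (chr16:93715922-93716122), were nearest to Dop1b, and the 1 upstream to Cbr1, its neighbour in the same enzyme family. The absence concerns the list only, since signal below the caller's limits is not recorded in it.

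Sqstm1 encodes an autophagy receptor that binds KEAP1 and so acts back on NRF2. The gene lies at chr11:50200152-50210820 on the minus strand, and the tall peaks near it stood beyond its far end. A peak of 85.3 (73.1 to 98.9), 174 tags over 1 control tag with a ratio of 147 (26 to 5830), lay 13915 bp downstream at chr11:50186137-50186337. Another of 52.9 (43.4 to 63.9), with a ratio of 30.4 (10.1 to 150), lay 23578 bp downstream at chr11:50176474-50176674, and one of 21.1 (15.2 to 28.4) lay between them. All 3 lie inside Mrnip, a gene linked to DNA repair. Closer to Sqstm1 itself, a peak of 20.6 (14.8 to 27.8) lay inside it and one of 16.2 (11.1 to 22.7) lay 2122 bp upstream of its start. The intervals of both lie below those of the 2 tall peaks. The last, of 7.35 (4.11 to 12.1), lay 46867 bp upstream inside Maml1.

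Osgin1, a growth inhibitor gene induced by oxidative stress, had 4 peaks of nearly equal height. It lies at chr8:119425882-119446257 on the plus strand, with 1 start site in the table, inside these limits. The peaks stood at 20.1 (14.4 to 27.3) 1957 bp outside the gene, at 16.2 (11.1 to 22.7) and 19.1 (13.6 to 26.1) inside it, and at 20.6 (14.8 to 27.8) 9786 bp downstream, inside Necab2. All 4 intervals overlap. All 4 lay within 10 kb of the gene, where 61.4% of protein-coding genes had a lower highest peak.

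Peaks just inside the 50 kb limit were low, and those just outside it varied more. Just inside it lay one of 13.2 at Nqo1 (49785 bp) and one of 8.82 at Cbr3 (47459 bp). Just outside lay 26.5 at Prdx6 (50340 bp), 9.31 at Osgin1 (50922 bp) and 6.37 at Ephx1 (51281 bp). A little farther, at 53167 bp from Cbr3, stood a peak of 40.2, higher than any inside its window.

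Many other genes of the same programme lay near tall peaks, but they were listed with earlier results of these data known. Of 40 other NRF2-linked genes, all 40 had a peak within 50 kb, against 93.5% of all protein-coding genes. Within 10 kb 38 had one (95%, against 74.5%), and 28 had one inside the gene (70%, against 50.5%). A peak within 1 kb of an end was listed for 20 of the 40, against 24.5% of all. A peak of 50 or more was within 50 kb of 22 of them (55%), against 3 of the 10 genes above (30%) and 35.4% of all. The highest peaks of these 22 genes were 21 different peaks, since Gstm1 and Gstm4 share one, and in 11 of the 22 another gene lay nearer to the peak. Over all 40, the median highest peak was 59.3, and within 10 kb it was 26.2. The 5 highest were those of Hmox1, the haem oxygenase gene (316, 292 to 341), Mafg itself (213, 194 to 234), the ferritin gene Fth1 (209, 189 to 230), the transporter gene Abcc2 (193, 174 to 213) and the glutathione S-transferase gene Gsta3 (184, 166 to 203). The peaks of Mafg and Gsta3 lay inside the genes, while that of Hmox1 lay 9635 bp away. Those of Abcc2, at 20515 bp, and of Fth1, at 40583 bp, lay nearer to Cutc and to Rab3il1. The overexpressed construct can itself give tags at Mafg, and Gsta3 belongs to a family of similar copies whose reads the mapping may have split. Whether either affected these peaks was not tested. The difference between the lists was not tested.

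Other genes of the thioredoxin and peroxiredoxin system were counted in the same way. Of 15 such genes, all 15 had a peak within 50 kb, against 93.5% of all protein-coding genes. Within 10 kb 13 had one (86.7%, against 74.5%), and 6 had one inside the gene (40%, against 50.5%). The median highest peak was 25, against 33.8. This list too was chosen with earlier results of these data known, and these differences were not tested. Peaks of 50 or more were within 50 kb of 4 genes (26.7%, against 35.4% of all). They were Msra, a methionine sulfoxide reductase gene (152, 136 to 170, inside it), Txnl1 (111, 96.8 to 126, 12386 bp away), the mitochondrial thioredoxin gene Txn2 (56.8, 47 to 68.2, 36292 bp away) and Prdx5 (51, 41.6 to 61.8, 25892 bp away). The fifth was Sesn1, a sestrin gene, with one of 45.6 (36.8 to 55.8) inside it. The peak of Txn2 lay nearer to, or inside, Eif3d, and that of Prdx5 nearer to, or inside, Kcnk4. Txnrd2 and Txnrd3, the paralogs of Txnrd1, had highest peaks of 21.1 (15.2 to 28.4) and 8.33 (4.85 to 13.3), and Prdx2, Prdx3 and Prdx4 of 15.7, 25 and 25. The interval of Txnrd2 overlaps that of Txnrd1, whereas that of Txnrd3 lies below it.

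**Figure D4:**
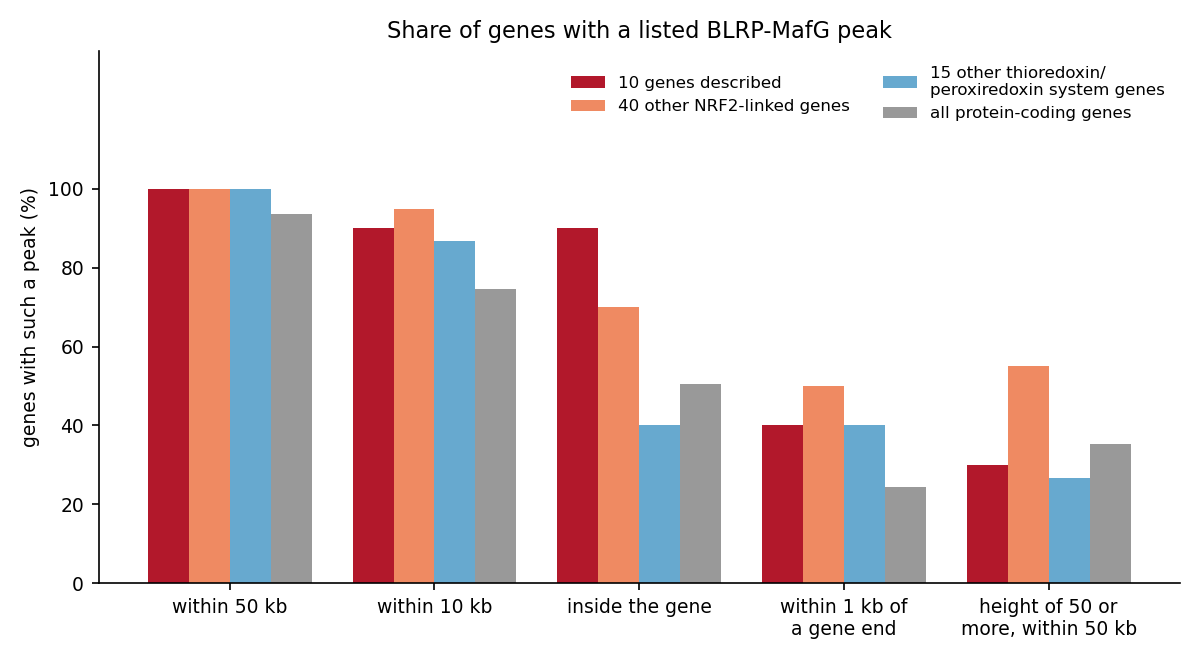
Percentage of genes with a listed peak within 50 kb, within 10 kb, inside the gene, within 1 kb of a gene end, and of a height of 50 or more within 50 kb, for the 10 genes, 40 other NRF2-linked genes, 15 other thioredoxin and peroxiredoxin system genes and all protein-coding genes. The bar of the 10 genes stands at 90% for peaks inside the gene, against 50.5% of all genes, and for tall peaks it is 3 of 10 genes, close to the 35.4% of all.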

How the data were processed

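The submitters' processing notes name Bowtie2, HOMER and mm10, without versions. Per the file headers, the authors called 200 bp peaks with HOMER findPeaks and kept those at least 10-fold over control (Poisson p of 1e-06) and 4-fold over the nearby 10 kb. The deposited normalized tag count is a signal that the authors scaled to 10000000 tags, and the deposited control signal is unscaled, with 0.5 for 0 tags. The deposited folds are linear ratios. The deposited p-value columns and the deposited peak score were not used.

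Scaling back to the stated total gave whole tags for 100% of the peaks (tolerance 0.11). From these came exact Poisson intervals of heights and exact conditional binomial intervals of ratios, with the control total implied by the deposited table. Peaks were placed by midpoint. Gene limits and promoter windows came from RefSeq (GRCm38.p6, the assembly of mm10), which gives no exons here, so exons and introns were not separated. All 10 genes and all 55 genes of the other lists were found by symbol. Each of the 10 is named; peaks of 50 or more are given with position and ratio, and the 5 highest genes of each other list are named. Members and lists were chosen with earlier results of these data known. Assignment and intervals were tested on simulated data. Alternatives were a 20-fold excess, windows of 10 kb and 1 kb, any overlap, the nearest gene only, peaks at or above the list's median and, added after the data were seen, leaving out the tallest peak. Python 3.11.15, pandas 2.3.3 and scipy 1.17.1 were used.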

Additional observations from a re-analysis of the deposited data

How the results depend on the processing

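All 10 genes kept a peak with a 20-fold excess over control, with any overlap and without the tallest peak near them. With windows of 10 kb or 1 kb, the nearest gene only, or peaks at or above the list's median height, 9 did. Peaks inside a gene count in every window here. Of all protein-coding genes, 74.5% had a peak inside or within 10 kb and 56.8% inside or within 1 kb. For the other alternatives the share of all genes was not computed, so those counts have no background. The 64 peaks became 35 with a 20-fold excess, 32 inside or within 10 kb, 20 inside or within 1 kb and 32 with the nearest gene only. The median highest normalized tag count, 28.4, was 21.1 within 1 kb and ran from 21.8 to 28.4 in the other alternatives. The other thioredoxin and peroxiredoxin system genes with a peak fell from 15 to 8 inside or within 1 kb (53.3%, against 56.8% of all protein-coding genes). A stricter fold, a smaller window and the nearest gene only each keep fewer peaks by construction, whereas any overlap kept 64. Of 70 single-gene values of the highest peak under the alternatives, 55 stayed within their counting interval, 11 left it and 4 could not be given because no peak remained. Many of the 55 were fixed in advance. Leaving out the tallest peak can change only Srxn1, and any overlap can only add peaks. A cutoff at the list's median height cannot lower a highest peak that it keeps. The tally is therefore no measure of robustness. Without its tallest peak, Srxn1 fell from 303 to 13.2. The median peak of the 64 held 29 tags, so depth limits every single ratio. No paired analysis was possible because the list holds no value per library, and for the same reason the fit with a replicate block and the fits leaving out a library were not run.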

Other observations

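Among promoter windows with a peak, those with taller peaks more often held each of the motifs searched. Of these motifs, TGCTGA was in no window of Prdx1 or Txnrd1, and TGACTCA was in none of Txnrd1. Of 32817 promoter windows in the RefSeq table, 2295 (6.99%) held the midpoint of a listed peak. TGACNNNGC was present in 11.9% of windows without a peak midpoint, in 14.7% of the 1073 windows whose highest peak was below 10, in 22.3% of the 1181 with a height of 10 to under 50, and in 23 of the 41 (56.1%) with a height of 50 or more. For TGCTGA the shares in the same order were 19%, 19.4%, 30.8% and 70.7%, and for TGACTCA they were 5.12%, 4.29%, 7.03% and 39%. The windows are all of 300 bases, TGACTCA and TGACNNNGC can overlap, base composition was not matched, and no test was run. The windows of Prdx1 (32.3) and Txnrd1 (21.6) belong to the class of 10 to under 50, as does that of Ephx1 (19.1), which holds none of the motifs.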
